A study of Mus musculus with 8 samples.

Results

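Sox, Pax and T-box genes encode 3 families of transcription factors that set cell fates in the embryo. The genes described here are the mouse protein-coding genes whose symbol is Sox, Pax or Tbx followed by a number only, apart from a few Sox genes left aside. There are 39 of them among 21900 protein-coding genes, 17 Sox, 9 Pax and 13 Tbx. They were chosen by symbol, they are not the complete Sox family, and H2A.Z peaks and differential regions were read within 1 kb of either end of each gene (a boundary peak).

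ChIP-seq (immunoprecipitation of chromatin followed by sequencing) mapped H2A.Z, a histone variant found at many promoters, in testis cells of Znhit1-CKO mice (conditional knockout, also written Znhit1-sKO in the protocol) and of control mice, both at postnatal day 14. Each genotype has 2 H2A.Z immunoprecipitate libraries, from independent biological replicates per the protocol, and 2 input libraries. ZNHIT1 is a subunit of the SRCAP complex, which puts H2A.Z into nucleosomes, and the series asks how it shapes H2A.Z occupancy in male germ cells. The Cre driver, the cells in which Znhit1 is deleted, the strain and the alleles of the controls are not stated in the labels.

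What is compared is 1 list of 31156 Znhit1-CKO peaks, 1 list of 48752 control peaks and 1 list of 24367 differential regions. There is no value per replicate, so no difference below was tested against the spread between animals, and widths are those of called peaks. The depth of each library is unknown. Differential regions carry no sign, so they do not say in which genotype the signal was higher. The dissociated testis holds germ cells and somatic cells, so fewer cells of a type and less H2A.Z per cell cannot be told apart. Control boundary peaks were at 6 of 6 germ cell markers (Ddx4, Dazl, Sycp3, Stra8, Zbtb16 and Tex101), at 5 of 6 Sertoli cell markers and at 2 of 6 Leydig cell markers. With such a peak at 67.6% of all genes, these counts do not check the tissue label. In Znhit1-CKO 3 of those 6, 1 of those 5 and 1 of those 2 were lost, beside 11.5% of all genes with a control boundary peak. The Sertoli and Leydig counts rest on 1 gene each, Clu and Lhcgr. The exact 95% interval of the germ cell share (11.8 to 88.2%) begins just above the 11.5% of all genes. Those of the Sertoli cell (0.505 to 71.6%) and Leydig cell (1.26 to 98.7%) shares hold it. Each rests on very few genes, and the part of each cell type in the results was not tested. A peak at a marker shows H2A.Z and not expression. At Znhit1 itself the boundary peak was 1422 bp wide in Znhit1-CKO and 2003 bp in control, which does not show whether the gene was deleted.

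SOX proteins bind DNA through an HMG box, PAX proteins through a paired domain and T-box proteins through the domain that names them. In embryonic stem cells H2A.Z is known to lie with Polycomb complexes at the promoters of such developmental genes, most of which are silent there. In the testis some Sox genes act in Sertoli cells and spermatogonia, whereas most Pax and Tbx genes are known for their roles in other organs.

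Promoter sequences are given first for members that show the range of what follows, since their CpG content and their cover by peaks differ. Sequences are those of RefSeq (GRCm38.p6), from 250 bases before to 50 bases after a listed transcription start, 5′ to 3′ along the gene, with each CpG in capitals. Sox21 (chr14:118236981-118237280, minus strand) and Sox11 (chr12:27342669-27342968, minus strand) are the Sox genes with the widest control boundary peak among lost and kept ones. Sox2 (chr3:34649745-34650044, plus strand) was chosen after its values were seen. All 300 bases of each lay in a control peak. In Znhit1-CKO, 286 of the 300 bases of Sox11 lay in a peak and 0 of those of Sox21 and Sox2.
Sox21: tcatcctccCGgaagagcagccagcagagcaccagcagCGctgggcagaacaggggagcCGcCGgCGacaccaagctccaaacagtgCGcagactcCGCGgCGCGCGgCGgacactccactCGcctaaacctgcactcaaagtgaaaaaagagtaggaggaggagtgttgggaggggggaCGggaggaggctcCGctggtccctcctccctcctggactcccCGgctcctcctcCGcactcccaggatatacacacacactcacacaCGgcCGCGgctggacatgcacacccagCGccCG
Sox2: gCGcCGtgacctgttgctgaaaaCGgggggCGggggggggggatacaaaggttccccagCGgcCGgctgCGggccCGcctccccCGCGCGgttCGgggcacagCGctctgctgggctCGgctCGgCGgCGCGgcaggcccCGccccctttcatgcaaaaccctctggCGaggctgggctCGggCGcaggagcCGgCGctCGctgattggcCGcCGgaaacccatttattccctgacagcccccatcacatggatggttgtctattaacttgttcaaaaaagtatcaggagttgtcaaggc
Sox11: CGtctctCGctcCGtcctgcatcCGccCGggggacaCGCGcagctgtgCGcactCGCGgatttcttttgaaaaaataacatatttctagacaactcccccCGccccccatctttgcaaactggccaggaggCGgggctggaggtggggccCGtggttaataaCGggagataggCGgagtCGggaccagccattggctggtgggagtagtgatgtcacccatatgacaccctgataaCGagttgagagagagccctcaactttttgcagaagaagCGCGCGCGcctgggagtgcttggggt
These promoters held 22, 27 and 21 CpGs.

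Pax1 (chr2:147364744-147365043, plus strand) stands for lost Pax genes and Pax8 (chr2:24475550-24475849, minus strand) for kept ones, by the same rule. Pax6 (chr2:105668646-105668945, plus strand) was chosen after its values were seen. No base of these promoters lay in a Znhit1-CKO peak. In control, 300 bases of the Pax6 promoter, 48 of that of Pax1 and 0 of that of Pax8 lay in one.
Pax1: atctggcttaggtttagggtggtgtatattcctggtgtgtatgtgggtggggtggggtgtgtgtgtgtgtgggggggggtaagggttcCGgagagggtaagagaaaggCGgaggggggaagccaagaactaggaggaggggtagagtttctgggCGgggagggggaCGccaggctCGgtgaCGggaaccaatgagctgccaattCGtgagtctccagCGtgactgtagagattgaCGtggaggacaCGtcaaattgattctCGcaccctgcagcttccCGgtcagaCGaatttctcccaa
Pax6: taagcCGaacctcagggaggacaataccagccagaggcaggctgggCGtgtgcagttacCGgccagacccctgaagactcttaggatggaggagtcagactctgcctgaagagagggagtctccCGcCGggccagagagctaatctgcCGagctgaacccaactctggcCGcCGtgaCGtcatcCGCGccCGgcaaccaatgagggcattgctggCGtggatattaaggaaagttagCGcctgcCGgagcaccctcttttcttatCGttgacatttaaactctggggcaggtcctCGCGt
Pax8: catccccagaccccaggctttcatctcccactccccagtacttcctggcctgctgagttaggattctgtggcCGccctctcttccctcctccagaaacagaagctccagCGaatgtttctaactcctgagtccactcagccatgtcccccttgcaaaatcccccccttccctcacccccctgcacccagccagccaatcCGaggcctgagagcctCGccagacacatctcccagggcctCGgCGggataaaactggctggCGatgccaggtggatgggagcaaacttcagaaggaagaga
They held 13, 18 and 7 CpGs.

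Among Tbx genes, Tbx20 (chr9:24774254-24774553, minus strand) was chosen after its values were seen, and Tbx10 (chr19:3992502-3992801, plus strand) by the rule. Sox15 (chr11:69654787-69655086, plus strand) had no peak in either list within 5 kb of the gene. All 300 bases at Tbx20 lay in a peak in Znhit1-CKO and in control, and none at Tbx10 or Sox15 in either.
Tbx20: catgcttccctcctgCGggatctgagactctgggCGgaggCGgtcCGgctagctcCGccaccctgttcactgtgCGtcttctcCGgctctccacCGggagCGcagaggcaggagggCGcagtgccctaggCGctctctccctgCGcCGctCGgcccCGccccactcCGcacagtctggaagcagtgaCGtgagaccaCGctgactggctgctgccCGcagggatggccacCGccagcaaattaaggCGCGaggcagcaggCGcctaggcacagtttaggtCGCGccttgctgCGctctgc
Tbx10: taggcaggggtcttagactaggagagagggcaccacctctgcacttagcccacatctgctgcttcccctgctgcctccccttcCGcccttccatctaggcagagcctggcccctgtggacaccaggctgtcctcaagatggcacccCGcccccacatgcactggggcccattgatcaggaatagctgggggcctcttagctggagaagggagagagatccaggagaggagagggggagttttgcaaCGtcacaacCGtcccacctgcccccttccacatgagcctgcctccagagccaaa
Sox15: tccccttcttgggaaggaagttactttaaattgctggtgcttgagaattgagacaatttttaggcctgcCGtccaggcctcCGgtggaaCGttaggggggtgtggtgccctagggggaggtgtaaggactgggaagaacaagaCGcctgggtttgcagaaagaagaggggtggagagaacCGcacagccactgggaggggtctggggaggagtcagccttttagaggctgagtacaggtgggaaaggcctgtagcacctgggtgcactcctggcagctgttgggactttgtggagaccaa
They held 26, 4 and 5 CpGs.

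Fewer of these genes had a boundary peak in Znhit1-CKO testes. A peak was called at 23 of 39 in Znhit1-CKO (59.0%, exact 95% interval 42.1 to 74.4%) and at 33 of 39 in control (84.6%, 69.5 to 94.1%). Among all protein-coding genes the shares were 60.4% in Znhit1-CKO and 67.6% in control. These intervals cover counting error only. Of the 33 genes with a control boundary peak, 10 had no Znhit1-CKO boundary peak (30.3%, 15.6 to 48.7%) and are called lost, against 11.5% of all such genes. The lost genes were Sox1, Sox14, Sox21, Pax1, Pax2, Pax5, Pax6, Pax7, Pax9 and Tbx15. The other 23 kept a peak. Sox15, Pax4, Tbx4, Tbx5, Tbx19 and Tbx22 had no boundary peak in either list, and 0 genes had one in Znhit1-CKO only, as 0.562% of all genes did.

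**Figure D1:**
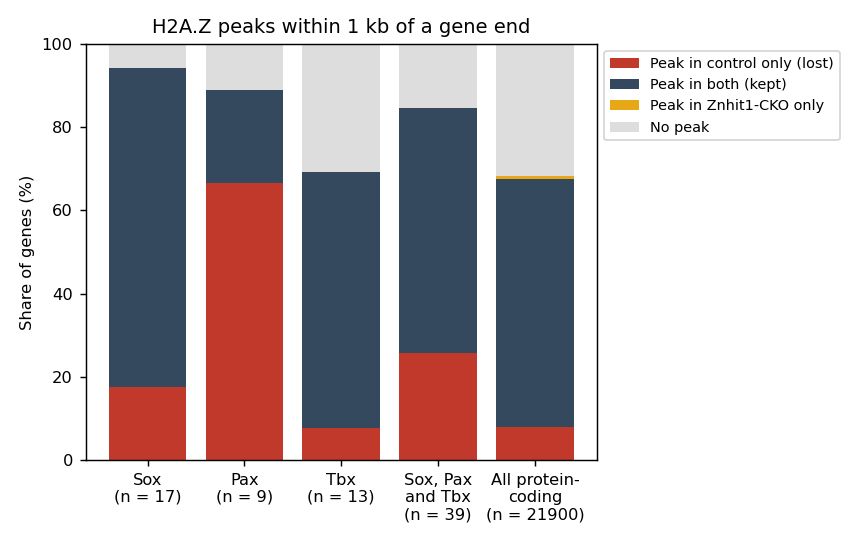
Share of genes by boundary peak state (y axis, percent) for the Sox, Pax and Tbx families, for the 39 genes together and for all 21900 protein-coding genes; colours mark a peak in control only, in both lists, in Znhit1-CKO only or in neither. Of the 9 Pax genes 6 were lost, of the 17 Sox genes 3 and of the 13 Tbx genes 1.

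By family the counts at gene ends were as follows. Among genes with a control boundary peak, 6 of 8 Pax genes were lost (75%, 34.9 to 96.8%), 3 of 16 Sox genes (18.8%, 4.05 to 45.6%) and 1 of 9 Tbx genes (11.1%, 0.281 to 48.2%). With listed starts in place of gene ends, 3 of 7 Pax genes were lost (42.9%, 9.90 to 81.6%), 3 of 10 Sox genes (30.0%, 6.67 to 65.2%) and 2 of 7 Tbx genes (28.6%, 3.67 to 71.0%). Among all genes with a listed start the share was 9.68%. The families lay closer together there, but only the 28 members with a listed start enter, so both the window and the genes differ. Pax genes also had narrow control peaks: the median width of the widest control boundary peak was 834 bp for Pax, 1837 bp for Sox and 1545 bp for Tbx genes, beside 1429 bp for all genes. No test between families was made.

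Width matters for reading these counts, because narrow control peaks were lost more often everywhere. Among genes whose widest control boundary peak was at most 1106 bp, 6 of 11 members were lost and 37.3% of all genes. In the next width group (1107 to 1429 bp) 2 of 4 members were lost, beside 5.04% of all genes. From 1430 to 1752 bp it was 1 of 5 (all genes 2.11%), and from 1753 bp upward 1 of 13 (all genes 1.76%). The members lost among wider peaks were Pax1 and Sox1, then Sox14, then Sox21.

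How much of each control peak was still called gives a measure without a yes or no. A median of 44.4% of the bases of control boundary peaks lay under a Znhit1-CKO peak at the 33 members, against 78.6% at all genes. Summed over members, 28336 of 61840 bp did (45.8%), and over all genes 72.1%. Only 5 members, Sox5, Sox12, Sox18, Tbx6 and Tbx18, were above the median of all genes, as 50% of all genes are by definition. At the other end 10 members had no base retained (30.3%, all genes 11.0%). They are the lost genes, with Pax8 in and Sox21 out. The family medians were 66.9% for Sox, 0% for Pax and 53.0% for Tbx genes.

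**Figure D2:**
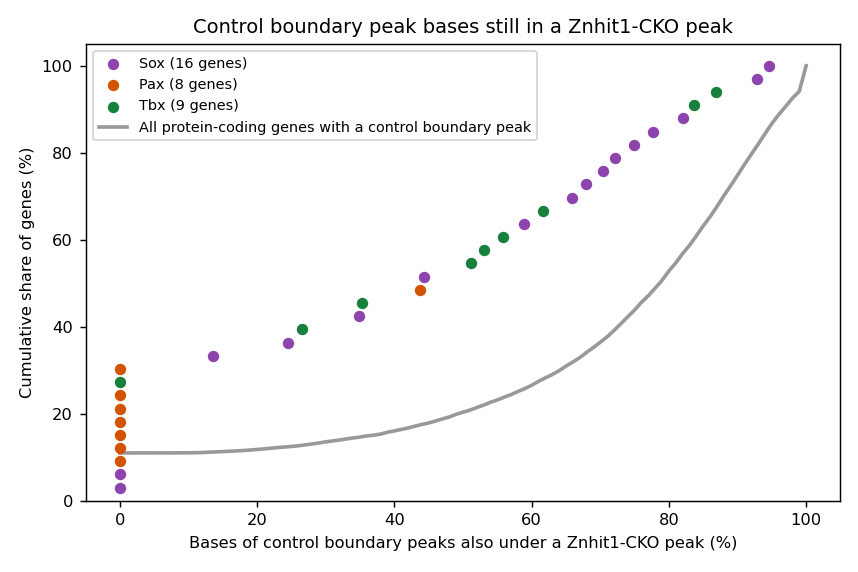
Cumulative share of genes (y axis, percent) by the share of their control boundary peak bases that also lay under a Znhit1-CKO peak (x axis, percent); points are Sox, Pax and Tbx genes with a control boundary peak and the grey line is all 14815 such protein-coding genes. The members' points lie left of the line, with medians of 44.4% and 78.6%.

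Members that kept a peak kept narrower ones. At the 23 kept genes the widest boundary peak had a median width of 884 bp in Znhit1-CKO and 1802 bp in control, against 1191 and 1487 bp at all kept genes. The median log2 width ratio, Znhit1-CKO over control, was -0.70, beside -0.26 for all kept genes. It was below 1:2 at 9 of the 23 (39.1%, all genes 13.3%), and the Znhit1-CKO peak was the wider at 1, Pax8 (4.35%, all genes 15.6%), where the peaks compared are not at the same place. The ratio sets only the widest peak of each list side by side, so a split peak counts as narrowed. Sox12, among the 9, retained 82.1% of its control bases. At Sox17, also among them, the 2 widest peaks lie at different ends of the gene. Among the widest control peaks, from 1753 bp upward, 12 members were kept, with a median log2 ratio of -0.88 beside -0.35 for all genes in that width group.

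SoxB1 genes keep neural progenitors and, for Sox2, pluripotent cells in their state. Sox2 on chromosome 3 had a boundary peak of 703 bp in Znhit1-CKO (34650132 to 34650834), against 2870 bp in control (34648584 to 34651453). In distance from the transcription start the Znhit1-CKO peak ran from 137 to 839 bp and the control peak from -1411 to 1458 bp. The upstream flank and the start itself were therefore outside the Znhit1-CKO peak, and a differential region lay at -464 to -65 bp. Sox1 on chromosome 8 had no peak within 5 kb in Znhit1-CKO, where the nearest was 102844 bp from the gene, against peaks of 242 and 1240 bp in control (12395551 to 12395792 and 12396476 to 12397715). Sox3, which is on the X chromosome and acts in spermatogonia, had a peak of 1252 bp in Znhit1-CKO and peaks of 1683 and 401 bp in control. All 3 SoxB1 genes were narrower or absent in Znhit1-CKO, with 30.0% of control boundary bases retained between them.

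The SoxB2 genes Sox14 and Sox21, which act in neural development, were both lost. Sox21 on chromosome 14 had the widest control boundary peak of all members, 3071 bp (118234371 to 118237441). A Znhit1-CKO peak of 418 bp (118235117 to 118235534) lay within it, but 1496 bp from the gene's start, the nearer boundary, and so outside the 1 kb window. Sox14 on chromosome 9 had no Znhit1-CKO peak within 5 kb of the gene, against 1708 bp in control (99874833 to 99876540), a peak that spanned most of this short gene. No differential region lay on the Sox14 boundary peak. At Sox21 a differential region lay on the part that both lists hold.

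SoxC genes, which act in progenitors of neurons and of mesenchyme, had wide peaks and kept them. Sox11 on chromosome 12 had 2 peaks of 1029 and 932 bp in Znhit1-CKO, both inside 1 control peak of 2976 bp (27341081 to 27344056). Sox12 on chromosome 2 likewise had 1430 and 1014 bp in Znhit1-CKO, inside a control peak that was also 2976 bp wide (152396708 to 152399683). At Sox4 the peak was 2054 bp in Znhit1-CKO and 2846 bp in control. Retained shares were 65.9% at Sox11, 82.1% at Sox12 and 72.2% at Sox4, so the Znhit1-CKO peaks were split or trimmed and not missing. Splitting of a control peak into 2 or more Znhit1-CKO peaks occurred at 5 members (15.2%, all genes 10.0%), Sox11, Sox12, Pax3, Tbx3 and Tbx18.

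SoxD genes, known for cartilage formation (Sox5 and Sox6), stood close to all genes. Retained shares were 92.8% at Sox5, 70.3% at Sox6 and 77.7% at Sox13. Sox5 and Sox6 are the longest members. Inside the Sox5 gene, away from its ends, 10 Znhit1-CKO and 13 control peaks were called, and 5 of those in control were overlapped by one in Znhit1-CKO. Inside Sox6 there were 6 and 7, with 3 overlapped. No boundary peak of the 3 SoxD genes had a differential region.

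Among the SoxE genes described, Sox8, which is active in Sertoli cells, had 1236 bp in Znhit1-CKO and 1651 bp in control. Sox10, a neural crest factor, had 530 and 741 bp. The SoxF genes shape blood vessels, and Sox17 also endoderm. Sox17 on chromosome 1 had peaks at both ends of the gene, of 651 and 276 bp in Znhit1-CKO and of 1269 and 1392 bp in control (4491605 to 4492873 and 4496572 to 4497963). Sox7 on chromosome 14 had 884 bp in Znhit1-CKO and 1993 bp in control (63942327 to 63944319). Sox18 was nearly the same in the lists, 1803 bp in Znhit1-CKO and 1906 bp in control. Within SoxF, retained shares thus ran from 34.8% at Sox17 over 44.4% at Sox7 to 94.6% at Sox18.

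**Figure D3:**
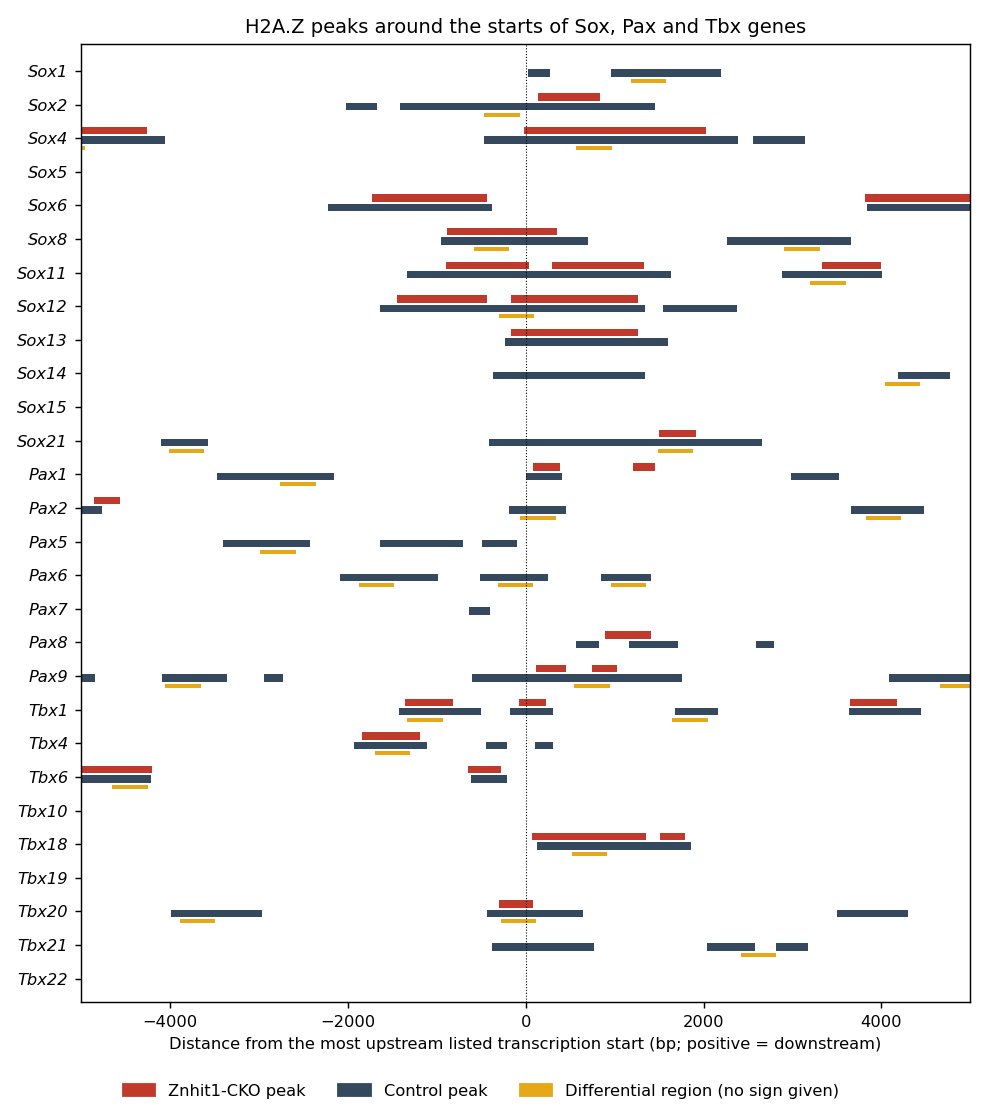
Znhit1-CKO peaks (red), control peaks (dark blue) and differential regions (yellow) for the 28 members with a listed start, by distance from the most upstream listed transcription start (x axis, bp, positive downstream); each row is a gene. Red bars are shorter than or missing beside most dark bars, as at Sox2 (703 bp against 2870 bp) and Sox14 (0 bp against 1708 bp).

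Pax genes build the eye, kidney, vertebrae, muscle, thyroid and B cells. Pax6, the eye and pancreas factor, is on chromosome 2. It had no Znhit1-CKO boundary peak, against 3 control peaks of 1101, 772 and 555 bp (105666813 to 105667913, 105668380 to 105669151 and 105669749 to 105670303). Each of those 3 carried a differential region. The nearest Znhit1-CKO peak was 7253 bp from the gene's ends, inside the gene. Its close relative Pax4, which acts in the pancreas, had no peak within 5 kb of the gene in either list.

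Pax1 and Pax9, which pattern the vertebral column and, for Pax9, teeth, were both lost at the gene ends. Pax1 had control peaks of 1317 bp (147361523 to 147362839) and 874 bp (147373291 to 147374164) on chromosome 2, each with a differential region. Pax9 on chromosome 12 had control peaks of 736 bp (56691381 to 56692116) and 222 bp (56692527 to 56692748). The annotated gene begins upstream of the listed start in both. Around the listed start of Pax9, peaks of 341 and 283 bp in Znhit1-CKO lay inside a control peak of 2364 bp (56694870 to 56697233). At that of Pax1 a 309 bp peak in Znhit1-CKO lay inside one of 413 bp in control. Read at listed starts only, Pax1, Pax9 and Pax2 therefore kept a peak, while Pax5, Pax6 and Pax7 did not.

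Pax2, Pax5 and Pax8 act in the kidney and ear, in B cells and in the thyroid. Pax2 on chromosome 19 had no Znhit1-CKO boundary peak, against control peaks of 633 bp (44746420 to 44747052) at its start and 212 bp at its end. Further inside the gene it held peaks of 1262 and 1399 bp in Znhit1-CKO, within control peaks of 1940 and 1770 bp. Pax5 on chromosome 4 had control peaks of 398 bp (44710792 to 44711189) and 932 bp (44711396 to 44712327) upstream of its start and none in Znhit1-CKO. Pax8 on chromosome 2 counted as kept, with 513 bp in Znhit1-CKO (24474190 to 24474702) and 253 bp in control (24474778 to 24475030), but these peaks did not overlap. The Znhit1-CKO peak shared 245 bp with a control peak of 553 bp (24473882 to 24474434) just outside the window, so it was not the wider of the pair that overlapped. Pax8 is the kept member nearest to the limit of the window, its Znhit1-CKO peak lying 897 bp from the gene's start. The nearest outside were Pax2 (1400 bp) and Sox21 (1496 bp) for Znhit1-CKO peaks and Tbx5 (1429 bp) for control peaks.

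Pax3 and Pax7 act in neural crest and muscle precursors. Pax3 on chromosome 1 had 293 and 188 bp in Znhit1-CKO (78196506 to 78196798 and 78197052 to 78197239), both inside a control peak of 1098 bp (78196341 to 78197438). Pax7 on chromosome 4 had none in Znhit1-CKO, against a narrow control peak of 236 bp (139833369 to 139833604). Both lacked a differential region on the boundary peak. Over the 8 Pax genes with a control boundary peak, 481 of 9339 bp were retained (5.15%), and all of those 481 bp were at Pax3.

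T-box genes of the Tbx1 subfamily pattern the pharynx, heart and skin. Tbx1 had boundary peaks of 804, 302 and 539 bp in Znhit1-CKO, each inside one of 1545, 479 and 919 bp in control. Tbx20, a heart factor on chromosome 9, had 383 bp in Znhit1-CKO (24774215 to 24774597) and 1085 bp in control (24773655 to 24774739). That control peak ran from -436 to 648 bp around the start and the Znhit1-CKO peak from -294 to 88 bp, so the called peak was trimmed at both edges, and more on the downstream side. Tbx18, which acts in ureter and heart, had 1286 bp in Znhit1-CKO (87729907 to 87731192), against 1738 bp in control (87729397 to 87731134), and 86.9% of control bases were retained. Tbx15, a skin and skeleton factor on chromosome 3, was the lost Tbx gene, with a control peak of 604 bp (99240683 to 99241286). At Tbx10 on chromosome 19 the peak, 1216 bp in Znhit1-CKO (3999787 to 4001002) and 1974 bp in control (3999328 to 4001301), lay at the gene's end and also at the end of Nudt8. Tbx22, the X-linked palate factor, had no boundary peak. All 5 genes of this subfamily with a control boundary peak had a differential region at a boundary.

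The Tbx2 subfamily sits as neighbours in pairs, Tbx2 with Tbx4 and Tbx3 with Tbx5, and acts in limbs and heart. Tbx3 on chromosome 5 had 512 and 702 bp in Znhit1-CKO, both inside a control peak of 2291 bp (119669121 to 119671411). Tbx2 on chromosome 11 had boundary peaks of 333 and 622 bp in Znhit1-CKO, against 4 of 775, 727, 594 and 2516 bp in control. The 2516 bp control peak (85842612 to 85845127) did overlap a Znhit1-CKO peak of 1432 bp (85843390 to 85844821) that lay outside the window, so the ratio of widest boundary peaks overstates the narrowing at Tbx2. Retained shares were 53.0% at Tbx3 and 51.1% at Tbx2. Tbx4 and Tbx5, the hindlimb and forelimb factors, had no boundary peak. Within 5 kb of the gene, peaks covered 644 bp at Tbx4 in Znhit1-CKO and 3259 bp in control, and at Tbx5 1057 and 2245 bp.

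Of the remaining T-box genes, Tbx21, which directs type 1 helper T cells, had 638 bp in Znhit1-CKO and 1267 and 1141 bp in control, the last over its start. The start peak had no counterpart, and the retained peak was at the gene's end. Tbx6, a factor of paraxial mesoderm, had 377 bp in Znhit1-CKO and 405 bp in control. Both lay next to Ypel3, whose gene end shares them. Tbx19, the pituitary factor, had no boundary peak in either list.

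Peaks along whole genes were compared next. Within the gene and 5 kb on either side, 37 members had control peaks, and 0 of the 37 had a longer covered length in Znhit1-CKO, which 12.4% of all such genes had. The median ratio of covered length, Znhit1-CKO over control, was 0.405, beside 0.746 for all genes. The median covered length was 927 bp in Znhit1-CKO and 3101 bp in control, against 1150 and 1580 bp at all genes. By family the median ratio was 0.177 for Pax, 0.574 for Sox and 0.448 for Tbx genes. Pax9 had 624 bp covered in Znhit1-CKO and 6176 bp in control. Pax6 had 834 and 6156 bp, Pax5 1337 and 6471 bp, and Tbx20 383 and 3578 bp. Sox1, Sox14 and Tbx19 had no covered base in Znhit1-CKO. Ratios nearest to 1 were those of Tbx6 (1164 bp in Znhit1-CKO and 1199 bp in control) and Tbx18 (1569 and 1738 bp). In a wider view of 50 kb on either side, Znhit1-CKO had fewer peaks than control at 34 of 39 members (87.2%, all genes 55.5%), as many at 3 and more at 2. Of all 21900 genes, 6994 had as many and 2752 had more. Medians were 4 peaks in Znhit1-CKO and 8 in control at members, and 3 and 4 at all genes. Members thus had more control peaks nearby that could be missing, so these shares of genes are not directly comparable.

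**Figure D4:**
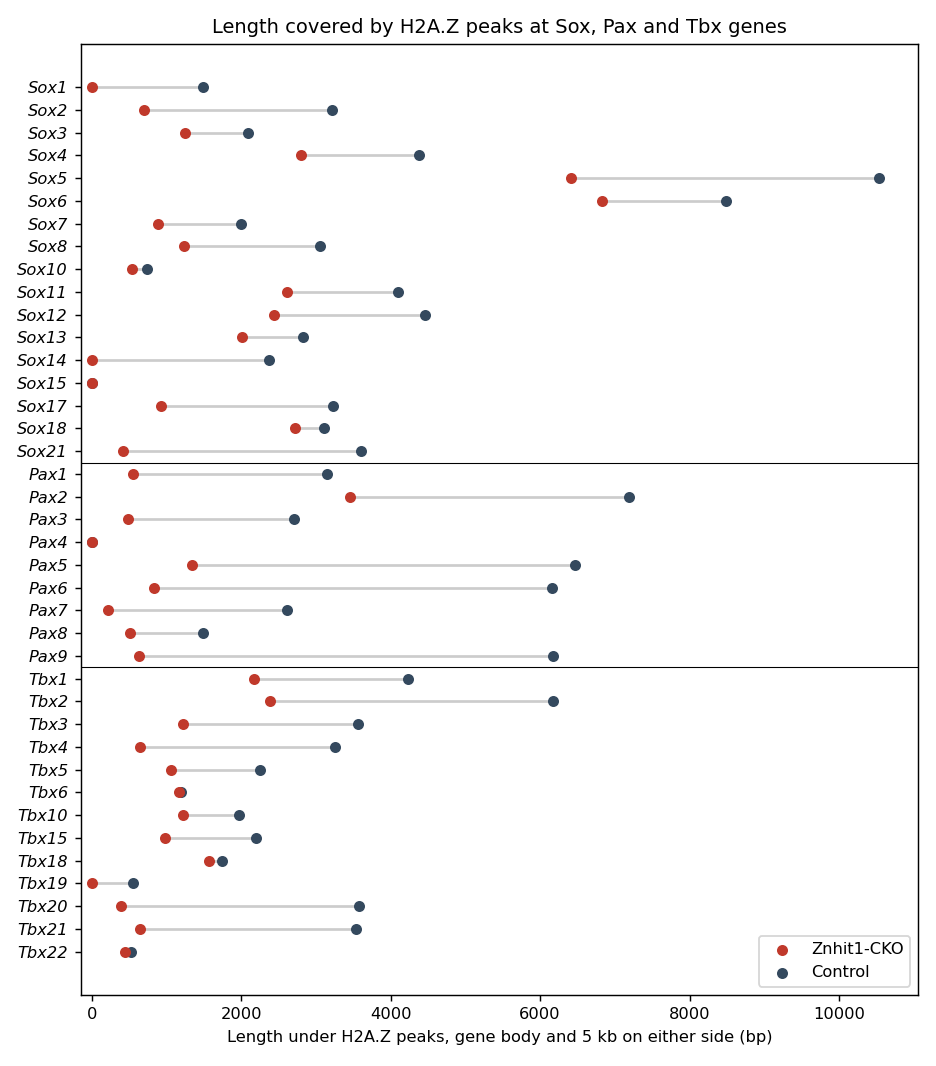
Length under H2A.Z peaks (x axis, bp) in the gene and 5 kb on either side for each of the 39 genes (rows), in Znhit1-CKO (red) and control (dark blue); a grey line joins the pair, and horizontal lines part Sox, Pax and Tbx genes. No red point lies right of its dark one, and at Sox15 and Pax4 both are at 0.

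Peaks near members that were called in 1 list only were narrow, as in the whole lists. Of 78 Znhit1-CKO peaks within 5 kb of a member, 11 overlapped no control peak (14.1%, whole list 17.9%), with a median of 309 bp. The 67 that did had a median of 644 bp. In the whole Znhit1-CKO list these medians were 345 and 795 bp. Of 144 control peaks, 84 overlapped no Znhit1-CKO peak (58.3%, whole list 50.7%), with a median of 553 bp, while the 60 that did had one of 1092 bp. In the whole control list the medians were 516 and 1175 bp. These shares and widths near members were close to those of the whole lists.

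The share of these gene ends with a differential region was below that of all genes, by an amount that depended on the setting. The difference was not tested. A region lay within 1 kb of an end at 15 of the 33 members with a control boundary peak (45.5%, 28.1 to 63.6%), against 62.8% of all such genes. That interval holds the share of all genes. Counted on the control boundary peak itself, it was 18 of 33 (54.5%), against 65.8%. With a 2000 bp window it was 20 of 34 (58.8%), against 66.1%. With a 500 bp window it was 10 of 31 (32.3%), against 59.3%, and with listed starts only 10 of 24 (41.7%), against 64.2%. Over all 39 members, with or without a control peak, it was 15 (38.5%), against 42.6%. By family it was 5 of 16 Sox, 4 of 8 Pax and 6 of 9 Tbx genes within 1 kb. Of the 10 lost members 5 had a region at a boundary, Pax1, Pax2, Pax6, Pax9 and Tbx15, and 5 did not. By width of the control peak, from the narrowest group to the widest, it was 5 of 11 members (45.5%, all genes 50.7%), 3 of 4 (75%, all genes 64.2%), 3 of 5 (60.0%, all genes 68.8%) and 4 of 13 (30.8%, all genes 67.6%). Sox1, Sox14, Sox21, Pax5 and Pax7 were lost with no region within 1 kb, though Sox1 and Sox21 had one on the lost peak further in.

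All 66 differential regions within 5 kb of a member, at 29 members, overlapped a control peak. Of these, 44 overlapped a control peak only (66.7%, whole list 52.3%), 22 also a Znhit1-CKO peak (33.3%, whole list 45.2%), and 0 a Znhit1-CKO peak only (whole list 1.58%). The regions are 400 bp wide, with few exceptions in the whole list, so a region covers only part of a wide peak.

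Members can be read from their transcription starts where the RefSeq promoter table used here lists one. A start was listed there for 28 of the 39 members. Pax3, Pax4, Sox3, Sox7, Sox10, Sox17, Sox18, Tbx2, Tbx3, Tbx5 and Tbx15 had no entry, which does not mean that no start is annotated for them. Listed starts can lie far inside a gene. The Sox5 control peak at the start end of the gene is at -835882 to -834081 bp from the listed one. At the end of the gene where transcription starts, 13 of the 28 had a boundary peak in Znhit1-CKO (46.4%, all genes 58.5%) and 23 in control (82.1%, all genes 65.0%). At the other end 3 had one in Znhit1-CKO (10.7%, all genes 6.73%) and 6 in control (21.4%, all genes 10.7%). A Znhit1-CKO peak covered a listed start in 9 of the 28 (32.1%) and a control peak in 15 (53.6%), against 54.0 and 63.5% of all genes with a listed start. At 6 of the 15 no Znhit1-CKO peak covered a start (40.0%, all genes 15.6%): Sox2, Sox14, Sox21, Pax6, Pax9 and Tbx21.

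CpG content was set beside the peak state within 1 kb of the start whose promoter was counted (the most upstream one listed), since the state at the gene ends can differ from it. By that state 9 of the 28 members were lost (Sox1, Sox14, Sox21, Pax2, Pax5, Pax6, Pax7, Tbx4 and Tbx21), 14 were kept and 5 had no peak. Pax2 kept a peak at another listed start. Lost members had a median of 21 CpGs in 300 bases and an observed over expected CpG ratio of 0.698, against 9 and 0.438 at the 1180 genes of all that were lost there. Kept members had 15.5 CpGs and 0.679, against 21 and 0.776 at 10475 kept genes. Members without a peak had 4 CpGs and 0.239, and all such genes 2 and 0.156. The median ratio was therefore not lower at lost than at kept members, while over all genes it was. The highest counts were 47 at Sox12 and 40 at Sox13, both kept, and 37 at Sox1, which was lost.

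**Figure D5:**
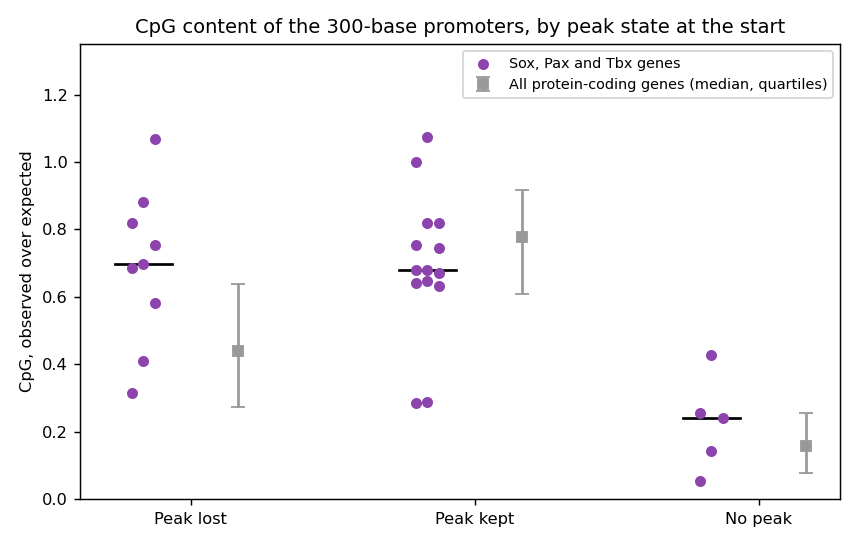
CpG observed over expected (y axis) in the 300-base promoters of members (purple points, black line at their median) and of all protein-coding genes (grey square at the median, bars from lower to upper quartile), by the peak state within 1 kb of the start counted. Lost members have a median of 0.698 and all lost genes of 0.438; kept members have a median of 0.679 and all kept genes of 0.776.

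Binding motifs of the families themselves were searched on both strands of the same promoters. The SOX motif AACAAT was in 1 of 28 member promoters (3.57%), that of Tbx19, against 9.50% of all 17492 promoters. The T-box motif AGGTGT was in 4 (14.3%), those of Pax9, Sox6, Sox15 and Tbx1, against 12.9%. A match is a run of letters and not a site.

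Genes that work with these families give the wider setting. Of 4 T-box genes with other names, 1 of 3 with a control boundary peak was lost, Tbr1 (named after its values were seen), whereas Mga (1401 bp in Znhit1-CKO and 1569 bp in control) and Eomes (844 and 1077 bp) kept theirs, and T had none. POU factor genes, partners of Sox proteins, lost 6 of 13 (46.2%, 19.2 to 74.9%), and Pou3f2 had 1112 bp in Znhit1-CKO and 3970 bp in control. Among those lost, Pou5f1 still had 25.3% of its control boundary peak bases retained. Of all genes with a control boundary peak 11.5% were lost, which lies within the wide interval of the other T-box genes (0.840 to 90.6%). It lies below the interval of POU factor genes, whose widest control boundary peaks had a median of 909 bp, beside 1429 bp for all genes. The part of peak width in this was not tested.

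Subunits of Polycomb complexes, which act on such genes, and Groucho corepressors lost none, 0 of 15 (0 to 21.8%) and 0 of 5 (0 to 52.2%). Both intervals hold the 11.5% of all genes, so these counts do not set the lists apart from it. Bmi1 had 1436 bp in Znhit1-CKO and 2306 bp in control, and Tle1 3266 and 3018 bp. Median retained shares were 80.8% for Polycomb and 91.9% for Groucho genes, close to or above that of all genes (78.6%). They were 39.8% for POU factors and 48.1% for the other T-box genes. These lists are small, and no test between them was made.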

How the data were processed

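The authors deposited 3 lists of regions, which hold coordinates and no score: Znhit1-CKO peaks, control peaks and differential regions, whose own name credits edgeR. The submitters' processing notes list MACS2 2.2.4 with Picard 2.20.7, SAMtools 1.9, BWA 0.7.17 and cutadapt 2.5, without order, and the mm10 build. Thresholds, pooling of replicates and the direction of differential regions are not stated there.

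RefSeq (GRCm38.p6) supplied the gene ends; on primary chromosomes it shares mm10 coordinates. A boundary peak overlaps a window of 1000 bp on either side of a gene end by at least 1 bp. A gene is lost with a control and no Znhit1-CKO boundary peak. The retained share is the part of the control boundary peak bases under any Znhit1-CKO peak. Width groups split all genes with a control boundary peak into 4 of about equal number. Transcription starts and sequences came from the RefSeq promoter table.

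The members and gene lists were chosen with earlier results of these data known. All 10 lost members, the 4 with the widest control peak per family, and kept ones with a ratio below 1:2 or above 1 were named with coordinates. Promoters printed by rule are those of the lost and the kept member per family with the widest control peak and an entry in the table, and 1 member without a peak (first by symbol in a tie). The retained share and the promoters of Sox2, Pax6 and Tbx20 were added after values were seen, as were the peak state at the counted start and the shares over whole lists. A few genes are not reported here. Aes was not found, so 5 of 6 Groucho genes were used. Shares carry exact (Clopper-Pearson) 95% intervals. There were no tests, since each genotype has 1 list. Alternatives were windows of 500 and 2000 bp, listed starts only, peaks of at least 500 bp, 200 bp inside the window, unshared peaks, other definitions of loss, and flanks of 2 and 20 kb. The overlap code was tested on simulated data. Software was matplotlib 3.10.9, scipy 1.17.1, pandas 2.3.3, numpy 2.4.6 and Python 3.11.15.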

Additional observations from a re-analysis of the deposited data

How the results depend on the processing

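No paired analysis was possible because the files hold 1 peak list per genotype. Replicates could not be left out in turn either. Of 51 values recomputed, 50 stayed within the 95% interval of the share reported or, for medians, 1 SD over members. The share of lost members (30.3%) moved to 54.5% where a Znhit1-CKO peak had to overlap a control boundary peak by 50% of both, beside 23.4% of all genes. That is built into the rule, which counts split or trimmed peaks as lost. It then adds Sox2, Sox7, Sox11, Sox12, Pax3, Pax8, Tbx3 and Tbx20. Elsewhere the lost share ran from 26.5% (2000 bp window, all genes 11.4%) to 36.7% (peaks of at least 500 bp, all genes 14.5%). With listed starts only it was 33.3%, beside 9.68%. The share with a differential region ran from 32.3% (500 bp window, all genes 59.3%) to 58.8% (2000 bp window, all genes 66.1%). Over all members it was 38.5%, beside 42.6%. The median log2 width ratio ran from -0.94 to -0.45 and the ratio of covered length from 0.345 to 0.448. The median retained share, whose alternatives were chosen after seeing the data, ran from 40.0 to 44.4%. Windows at the gene ends do not enter covered length, so those settings were not run for it. With a 2000 bp window Sox21 and Pax2 were kept and Tbx5 was lost. With listed starts only Pax1, Pax2, Pax9 and Tbx22 were kept, Tbx4 and Tbx21 were lost, and Sox5 and Tbx10 had no peak. With a 500 bp window Tbx21 was lost, and Pax8 and Sox10 had no peak. With peaks of at least 500 bp Pax3 and Tbx20 were lost, Pax7 and Tbx6 had no peak and Pax8 had one in Znhit1-CKO only. With 200 bp inside the window Pax8 was lost, and where any overlapping Znhit1-CKO peak counted Pax8 was lost and Sox21 kept. The exact depth per library is unknown, so narrow peaks near the authors' threshold are the least certain.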
